A study of Mus musculus with 24 samples.

Results

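The 7 genes described here comprise 5 that encode type I interferons (Ifnb1, Ifna1, Ifna2, Ifna4 and Ifna5) and 2 that encode the chains of their common receptor (Ifnar1 and Ifnar2). They were taken by symbol from a table of 54532 genes, in which each of the 7 symbols occurred once. The RNA came from bone marrow-derived macrophages (BMDMs, cultured with L929 cell supernatant) and bone marrow-derived dendritic cells (BMDCs, cultured with GM-CSF and IL-4) of mice. All donors carried loxP-flanked alleles of Tmem173, the gene of the DNA-pathway adaptor STING. The study's methods describe tamoxifen treatment for mice of both genotypes, but their section on the marrow cultures does not mention it. The groups labelled WT were Tmem173 fl/fl without a recombinase. The groups labelled CRE were Tmem173 fl/fl with Lyz2-Cre ert2, a tamoxifen-inducible Cre under a promoter active in macrophages and granulocytes. Cells were left as controls or given DMXAA, a ligand of mouse STING, at 40 µM per the series text, while the study's methods use a mass unit, so the concentration is uncertain. Tamoxifen was given to young mice, per the methods, but donor age at marrow isolation and the length of the DMXAA treatment are not stated there for these RNA libraries. The 2 cell types, 2 labels and 2 treatments gave 8 groups of 3 libraries. No source used here ties the libraries of a group to separate donors, so p-values measure the spread between libraries, which may be technical.

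Summed counts ranged from 15657347 to 18912887 per library, so a count of 0 allowed a level of up to 0.159 to 0.192 CPM (a count divided by the summed counts of its library and scaled to 1e6), taking 3 counts as the floor and covering counting error only. The 4 BMDM libraries numbered 3 went against their label. Their macrophage marker list had a median of 0.89 to 1.97 CPM, against 986 to 1457 CPM in the 8 BMDM libraries numbered 1 and 2, and their leukocyte list a median of 0 to 0.30 CPM. Their fibroblast list had a median of 364 to 679 CPM, against 1.06 to 27.5 CPM. They were left out of the BMDM fits and are given apart. BMDCs held the dendritic cell list at a median of 153 to 608 CPM, against 0.053 to 1.28 CPM in BMDMs numbered 1 and 2. The macrophage list was present in BMDCs too, at a median of 85.9 to 280 CPM. Their WT library 1 and CRE library 2, in control and DMXAA alike, stood apart from the other 8. Among BMDCs, the closest library to each WT library was a CRE library in all 6 cases, at Pearson r of 0.980 to 0.996 across genes. Tmem173 itself was present under both labels. Its counts were 481 and 690 in WT and 400 and 430 in CRE control BMDMs, 758 and 829 in WT and 349 and 377 in CRE DMXAA BMDMs, and 1215 to 2204 in WT against 855 to 1734 in CRE BMDCs. The test called it lower in CRE in DMXAA BMDMs (log2 difference -1.45 ± 0.24 SE, adjusted p = 0.00921), and in no other CRE against WT comparison.

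Type I interferons are secreted proteins that one cell makes and neighbouring cells sense. A cytosolic nucleic acid sensor such as cGAS or, for the agonist used here, STING itself leads through the kinase TBK1 to the transcription factors IRF3, IRF7 and NF-kB, which switch on Ifnb1 and the Ifna genes. All of these cytokines bind one receptor of the chains IFNAR1 and IFNAR2, which carry the kinases TYK2 and JAK1. The kinases activate STAT2, which acts with IRF9 to drive the interferon-stimulated genes, IRF7 among them, so that a first wave of interferon feeds a second.

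The 5 interferon genes sit in a cluster on chromosome 4 (GRCm38, as the table gives them) that the members span over 329 kb, and each has 1 transcript of 1 exon in GENCODE M21. Ifnb1 (ENSMUSG00000048806) lies at chr4:88522025-88522774 on the minus strand, Ifna2 at chr4:88682881-88683912 on the minus strand, Ifna5 at chr4:88835525-88836094, Ifna4 at chr4:88841861-88842421 and Ifna1 at chr4:88850087-88850656, the last 3 on the plus strand. The gene models of Ifna1 (570 bases), Ifna4 (561) and Ifna5 (570) hold little or no untranslated sequence, so their length is a coding length. Ifnar2 (chr16:91372783-91405589) and Ifnar1 (chr16:91485238-91507441) are neighbours on the plus strand of chromosome 16, 79.6 kb apart, with 5 transcripts of 2 to 9 exons and 8 transcripts of 2 to 13 exons. Ifnar2 is overlapped on its own strand by the gene model Gm21970, whose reads could be split with it.

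The promoters of the 5 ligands are shown because these genes rose together under DMXAA in BMDCs. Each stretch is 120 bases from RefSeq (GRCm38.p6), 5′ to 3′ on the gene's strand, and ends at a TATA-like sequence. Capitals mark matches on either strand to AANNGAAA, the core that interferon regulatory factors bind, and in Ifnb1 also to GGGAANTTC, a kB-like sequence. The stretches are chr4:88522870-88522989 for Ifnb1, chr4:88841651-88841770 for Ifna4, chr4:88835312-88835431 for Ifna5, chr4:88683871-88683990 for Ifna2 and chr4:88849874-88849993 for Ifna1. The Ifna2 stretch overlaps the 5′ end of the gene model given above, as RefSeq places the start of this gene further downstream.
Ifnb1: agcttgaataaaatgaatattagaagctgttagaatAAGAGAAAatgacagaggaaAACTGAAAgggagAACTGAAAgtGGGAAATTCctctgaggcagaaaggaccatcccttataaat
Ifna4: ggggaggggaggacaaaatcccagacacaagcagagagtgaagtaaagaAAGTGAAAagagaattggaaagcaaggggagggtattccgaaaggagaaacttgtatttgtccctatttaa
Ifna5: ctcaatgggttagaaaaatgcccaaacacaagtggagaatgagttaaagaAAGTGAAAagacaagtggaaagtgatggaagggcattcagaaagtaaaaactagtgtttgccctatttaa
Ifna2: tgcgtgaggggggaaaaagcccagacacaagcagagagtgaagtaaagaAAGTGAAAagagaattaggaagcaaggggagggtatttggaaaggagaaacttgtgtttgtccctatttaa
Ifna1: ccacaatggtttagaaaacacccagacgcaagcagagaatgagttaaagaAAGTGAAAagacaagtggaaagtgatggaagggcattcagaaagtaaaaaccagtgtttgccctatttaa
Ifnb1 held 3 separate cores in this stretch, the last one 2 bases before the kB-like match. Each of the 4 alpha genes held 1, in a run that all 4 share around it. Over the promoter window of 300 bases (250 before and 50 after the annotated start), the cores numbered 3 in Ifnb1 and in Ifna4, 2 in Ifna2 and in Ifna5, 1 in Ifna1 and 0 in both receptor genes. Of 32851 such windows in the reference, 23.9% held at least 1 core, 5.34% at least 2 and 1.12% at least 3, and 1.08% held the kB-like sequence, which among the 7 genes was in Ifnb1 alone. The TATA-like end lay at -46 from the annotated start in Ifna4, and at -94, -92 and -94 in Ifna1, Ifna2 and Ifna5. The window of Ifna4 therefore reached further upstream of that end, and core counts of the alpha genes depend on the annotated start. A match is a description of letters and not of binding.

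**Figure D1:**
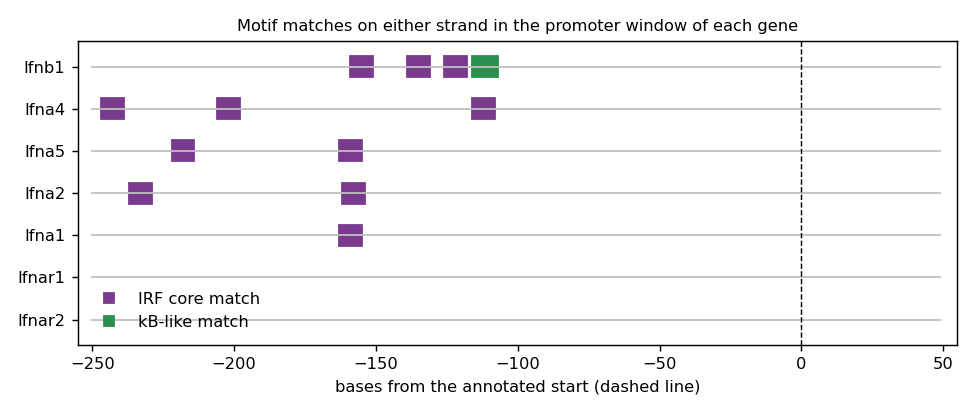
Positions of motif matches on either strand in the promoter window of each of the 7 genes, in bases from the annotated start (dashed line). Purple boxes mark AANNGAAA and the green box GGGAANTTC; the 5 interferon genes hold 1 to 3 purple boxes each and the receptor genes hold 0.

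In control cells the interferon genes were silent at this depth. All 5 ligands had 0 counts in the 6 control BMDC libraries and in the 4 control BMDM libraries numbered 1 and 2. The only control counts of any ligand were 2 of Ifnb1 in the WT BMDM library numbered 3, which is under the floor. Under DMXAA the 2 cell types differed in which ligands appeared. Every ligand appeared in every DMXAA BMDC library, whereas DMXAA BMDMs held Ifnb1 counts above the floor under the WT label only, and no alpha member above 1 count.

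Ifnb1, the single beta interferon gene, was the most abundant ligand in BMDCs. Its counts under DMXAA were 612, 400 and 634 in WT BMDCs and 548, 237 and 528 in CRE BMDCs. The WT mean was 31.4 CPM, at least 182-fold above the control libraries (floor of 3 counts in each control library), and the CRE mean was 26.0 CPM, at least 150-fold above. With edgeR's quasi-likelihood test Ifnb1 was called higher with an adjusted p of 4.35e-05 in WT and 6.22e-05 in CRE BMDCs. Of all genes, 32.2% and 25.4% were called in the same order. Ifnb1 passed the low-value filter only through the DMXAA libraries, so neither the calls nor their direction are independent of the filter. All 6 DMXAA libraries were above all 6 controls, which were at 0, and the WT and CRE ranges overlapped.

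Ifna4, an alpha gene expressed early in the response, came next, with 212, 232 and 402 counts in WT and 375, 105 and 208 in CRE DMXAA BMDCs. That is at least 94.0-fold and at least 80.0-fold above control. Ifna5 had 126, 195 and 333 counts in WT and 315, 63 and 212 in CRE, at least 72.8-fold and at least 68.6-fold above control. Both are secreted alpha interferons that use the same receptor as Ifnb1. For Ifna2 the counts were 88, 99 and 197 in WT and 134, 32 and 103 in CRE, at least 42.8-fold and at least 31.1-fold above control. Ifna1 had the lowest summed counts, with 36, 60 and 152 in WT and 111, 66 and 72 in CRE, at least 27.8-fold and at least 28.5-fold above control. The same libraries held the highest counts of all 4 alpha members, WT library 3 and CRE library 1, and these 2 libraries were each other's closest by the expression of all genes.

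With Ifnar2, 6 of the 7 genes were called higher in WT BMDCs and the same 6 in CRE BMDCs, and 0 lower. Over all genes tested, 32.2% were called in WT (3904 of 12126) and 25.4% in CRE BMDCs (3084). The ligands passed the low-value filter only through the DMXAA libraries, so their count was bound to differ. Adjusted p-values of the alpha genes (edgeR) ran from 2.37e-04 to 6.61e-04 in WT and from 3.50e-04 to 0.00105 in CRE BMDCs. Reads of some alpha genes cannot be placed with certainty: of all 100-base windows of the transcript, 14.9% in Ifna1, 16.6% in Ifna5 and 0.643% in Ifna2 also occur in a transcript of another gene, and 0 in Ifna4 and Ifnb1. At 50 bases the shares were 67.4% for Ifna1, 52.2% for Ifna5, 12.2% for Ifna2 and 6.45% for Ifna4.

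**Figure D2:**
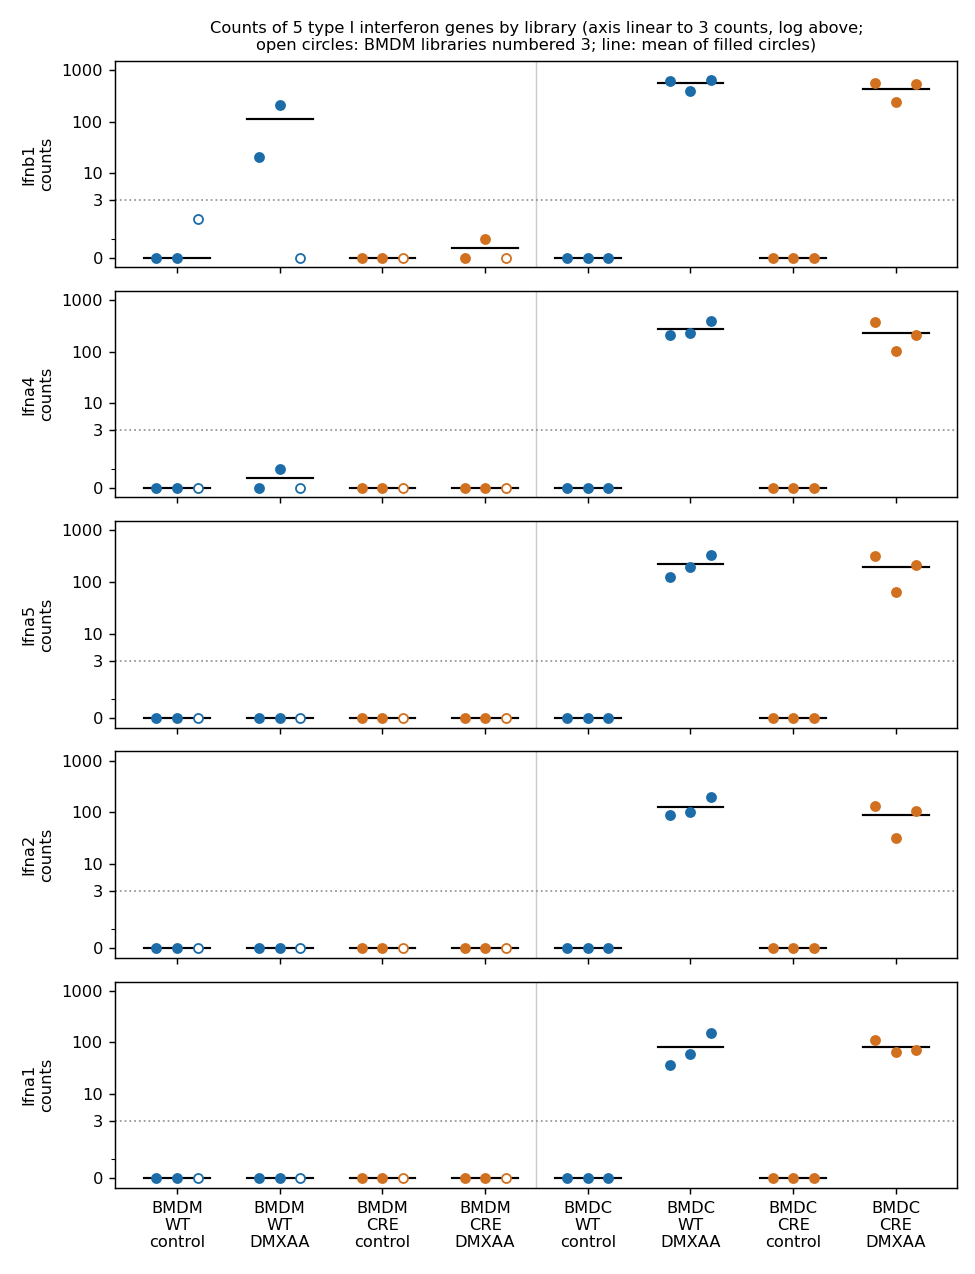
Counts of the 5 interferon genes in all 24 libraries by group, 3 per group, on an axis that is linear up to the floor of 3 counts (dotted) and logarithmic above. Filled circles are the libraries of the fits, open circles the BMDM libraries numbered 3 and lines the means of the filled circles; every DMXAA BMDC library lies between 32 and 634 counts for each gene, and every control BMDC library is at 0.

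Of the 13 other type I interferon genes in the table, 4 passed the filter in BMDCs and all 4 were called higher in WT and in CRE, again only through DMXAA libraries. Ifna9 was the highest, with 18 to 172 counts under DMXAA over both labels, followed by Ifna6 (10 to 54), Ifna14 (3 to 42) and Ifna11 (3 to 25). A further 4 exceeded 3 counts in at least 1 DMXAA BMDC library, Ifna13 (0 to 9), Ifnz (0 to 8), Ifnk (0 to 4) and Ifna15 (0 to 4). Ifna7, Ifna12, Ifna16, Ifnab and Ifne stayed at 0 to 3 counts.

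Per length, in FPKM (fragments per kilobase of gene and per sequencing depth, from the deposited columns), Ifnb1 ranked first of the 18 type I genes in all 6 DMXAA BMDC libraries, from 20.3 to 57.0. Ifna4 held rank 2 or 3, at 12.04 to 47.9, and Ifna5 between rank 2 and rank 4, at 7.11 to 39.6. Ifna1 (4.41 to 17.7) and Ifna2 (1.99 to 12.7) overlapped each other and Ifna9 (2.02 to 19.9). Ifnb1 made up 27.1% to 44.0% of the summed type I FPKM and Ifna4 20.01% to 24.9%, and the 5 members together 83.6% to 92.2%. The alpha genes summed to 1.27 to 2.67 times the FPKM of Ifnb1. The level varied more than this makeup, since total type I counts ran from 542 in CRE library 2 to 2019 in WT library 3.

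**Figure D3:**
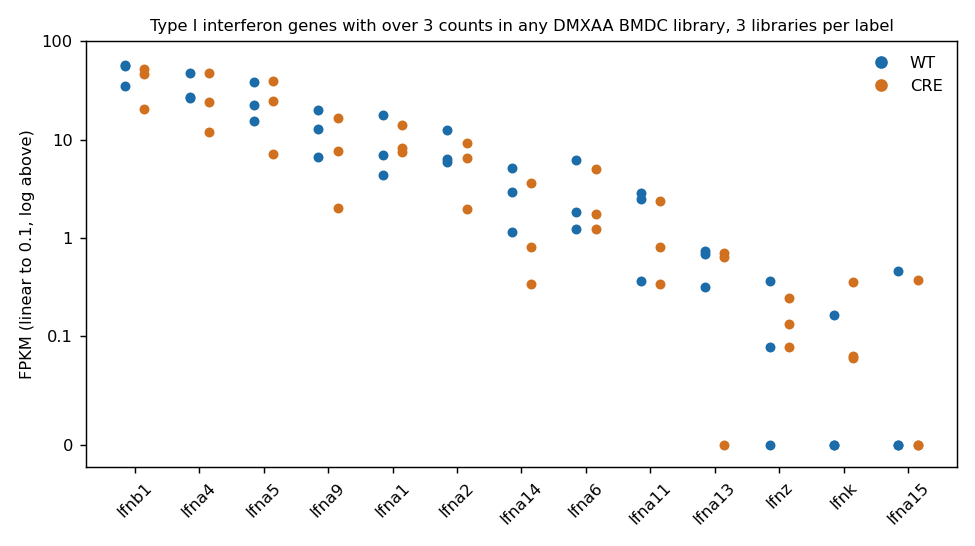
FPKM of each type I interferon gene with over 3 counts in any DMXAA BMDC library, 1 point per library, 3 WT (blue) and 3 CRE (orange), on an axis linear to 0.1 and logarithmic above. Genes are ordered by their median over both labels, and Ifnb1 has the highest median, at 49.4 FPKM.

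Whether CRE BMDCs made less interferon than WT BMDCs was asked under DMXAA. The test called 0 of the 7 genes and 0 of all 12126 genes (0%, with 108 at an unadjusted p under 0.05, and 0 by DESeq2). The log2 difference of CRE from WT was -0.30 ± 0.37 (SE) for Ifnb1, with a 95% interval of -1.18 to 0.58, -0.25 (-1.44 to 0.94) for Ifna4 and -0.10 (-1.55 to 1.34) for Ifna5. It was -0.47 (-1.85 to 0.91) for Ifna2 and 0.03 (-1.30 to 1.37) for Ifna1. All 5 intervals include a log2 difference of -1, and those of Ifna1 and Ifna5 also include 1, whereas those of Ifnb1, Ifna2 and Ifna4 do not. CRE library 2, which stood apart with WT library 1, had the lowest Ifnb1, Ifna2, Ifna4 and Ifna5 counts of the 6. Without the 4 BMDC libraries that stood apart, an alternative added after the data were seen, the Ifnb1 difference was 0.11. In control BMDCs, where the 5 ligands were at 0 and only the 2 receptors could differ, 0 were called (0% of all genes, 99 at an unadjusted p under 0.05, 0 by DESeq2). The label by DMXAA interaction called 0 of 7 as well (0%, 60 at an unadjusted p under 0.05, 1 gene by DESeq2), and cannot be estimated for a ligand at 0 in both control groups.

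Of the ligands, only Ifnb1 exceeded the floor in BMDMs, and under the WT label only. Its counts under DMXAA were 21 and 208 in WT libraries 1 and 2 and 0 and 1 in the CRE libraries, and 0 in both libraries numbered 3. The WT mean of 6.19 CPM was at least 38.3-fold above the WT controls, and library 1 alone was at least 7.88-fold above them. The WT BMDM libraries numbered 2 stood apart in fibroblast markers, which summed to 458 CPM in control and 422 CPM under DMXAA, against 28.8 to 63.1 CPM in the other 6 libraries of the fit. Without both of these libraries, which left 1 WT library in each arm, Ifnb1 kept its direction. It stayed higher under DMXAA than in control in WT, and higher in WT than in CRE under DMXAA. The part of cells that hold fibroblast markers in the result was not tested. By edgeR's quasi-likelihood test Ifnb1 was called higher in WT BMDMs (adjusted p = 0.0160), 1 of the 3 members tested, and 39.2% of all 11569 genes were called. Ifnb1 passed the low-value filter only through the WT DMXAA libraries (2.48 and 19.2 FPKM, others 0 to 0.083), so it was bound to be high in that group, and neither this call nor the one between labels is independent of the filter. In CRE BMDMs 0 of 3 members were called, against 10.0% of all genes (1157), and both CRE groups were at or under the floor for Ifnb1. Directly compared under DMXAA, Ifnb1 was lower in CRE than in WT BMDMs (adjusted p = 0.0374), 1 of 3 members, with 19.2% of all genes called. The ratio of WT to CRE was 240, with an exact 95% counting interval of 42.7 to 9526 that does not include the spread between libraries.

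That call rested on few libraries. Without WT DMXAA library 2, or without either CRE DMXAA library, it was lost, DESeq2 did not make it, and with the libraries numbered 3 included Ifnb1 fell below the filter. In WT BMDMs the response was not called by DESeq2 either. Control BMDMs had 0 of 3 members called in CRE against WT (0.0432% of all genes), and the label by DMXAA interaction called 0 of 3 (3.66% of all genes), with no estimate possible for Ifnb1.

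BMDMs held no alpha interferon above the floor. Across all 12 BMDM libraries, the only count of an alpha member was 1 of Ifna4, in WT DMXAA library 2, and 4 of the 7 genes were therefore not tested in BMDMs. Under DMXAA in the WT label, BMDCs against BMDMs numbered 1 and 2 gave at least 28.0-fold more Ifna1, at least 43.1-fold more Ifna2 and at least 73.5-fold more Ifna5. Ifna4 stood at 846 against 1 count, a ratio of 566 with a counting interval of 101 to 22395. Ifnb1 was 2.22 ± 0.74 (SE) higher in BMDCs on the log2 scale (edgeR, adjusted p = 0.0473). In this fit 5 members were called higher and 1 lower, and 30.6% of all genes were called (4092 of 13368). The 4 alpha members passed the filter of this fit only through DMXAA BMDC libraries, so their direction was fixed by it.

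The BMDC excess in Ifnb1 was borderline. It missed the threshold with the replicate number as a block (2.15, adjusted p = 0.113), without the BMDC libraries that stood apart (2.11, adjusted p = 0.0611), without WT DMXAA BMDM library 1, which held 21 counts (1.39, adjusted p = 0.144), and without any one of the 3 WT DMXAA BMDC libraries (2.08 to 2.38, adjusted p = 0.0659 to 0.103). By DESeq2, Ifnb1 and Ifna4 were called higher and Ifna1, Ifna2 and Ifna5 were not. Plasmacytoid dendritic cells are the blood cells best known for alpha interferon. Their list of 6 markers summed to 851 to 979.5 CPM in DMXAA and 165 to 255 CPM in control BMDCs, most of it Bst2 (513 to 736 CPM under DMXAA), itself an interferon-stimulated gene. The defining marker Siglech was at 0 or 1 count in the 12 BMDC libraries and at 0 to 2 in BMDMs, and Ccr9 at 0 to 16 and 0 to 11 counts. Ly6d was at 0 to 4 counts in BMDCs. Tcf4, a factor of this lineage, was at 80.6 to 134 CPM in DMXAA and 25.5 to 31.9 CPM in control BMDCs. Irf8, shared with other dendritic cells, was at 139 to 323 and 43.9 to 111 CPM. In BMDMs numbered 1 and 2 the list summed to 808 to 1004 CPM under DMXAA and 255 to 381 CPM in control. Over both treatments, Tcf4 was at 35.7 to 151 CPM in those BMDMs and Irf8 at 105 to 250 CPM. The part of such cells in the result was not tested. In bulk RNA, more producing cells and more interferon RNA per cell cannot be told apart.

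The receptor chains were present in every library, unlike the ligands. Ifnar1 encodes the chain that carries TYK2. In BMDMs its counts were 4387 and 3488 in WT control, 2651 and 3039 in WT DMXAA, 3713 and 4190 in CRE control, and 4431 and 4238 in CRE DMXAA. On the FPKM scale these groups were at 32.0 ± 5.9, 37.4 ± 2.9, 35.2 ± 0.42 and 44.5 ± 0.49 (SD, n = 2). WT counts were lower with DMXAA while WT FPKM were not, because the FPKM columns use a library size of 68.7% to 89.3% of the summed counts in the 10 DMXAA libraries of the fits and 103% to 116% in the 10 controls. In the BMDM libraries numbered 3 that size was 126% to 133% in both treatments, and Ifnar1 stood at 1209 to 1996 counts and 9.61 to 14.1 FPKM.

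In BMDCs Ifnar1 was at 1261, 2065 and 2014 counts in WT control and 1439, 3104 and 2890 in WT DMXAA. CRE BMDCs had 2131, 1471 and 1882 counts in control and 2936, 1820 and 2876 under DMXAA. By FPKM the means were 15.5 ± 3.5 and 27.8 ± 9.5 in WT, and 15.9 ± 2.4 and 29.0 ± 8.2 in CRE (SD, n = 3). WT library 1 and CRE library 2 were lowest within their groups. Each DMXAA library was above the control library of the same number, by 1.48 to 2.02 times in FPKM and 1.14 to 1.55 times in CPM.

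Ifnar2 encodes the chain that carries JAK1 and binds ligand with high affinity. BMDM counts were 1874 and 1604 in WT control, 1386 and 1542 in WT DMXAA, 1592 and 1853 in CRE control, and 1848 and 1800 in CRE DMXAA. The FPKM means were 25.2 ± 3.3, 34.4 ± 3.4, 27.4 ± 0.93 and 33.4 ± 0.064 (SD, n = 2), and 9.03 to 17.5 FPKM in the libraries numbered 3. In BMDCs the counts were 831, 891 and 884 in WT control and 825, 1005 and 966 in WT DMXAA. Those of CRE BMDCs were 969, 914 and 908 in control and 862, 1010 and 1022 under DMXAA. In FPKM, all 6 DMXAA BMDC libraries (17.3 to 20.2) were above all 6 controls (13.5 to 14.6). In CPM the ranges overlapped, at 45.9 to 57.6 under DMXAA and 46.3 to 54.9 in control. The FPKM columns use a smaller library size under DMXAA, and the share of all genes apart in this way was not counted.

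**Figure D4:**
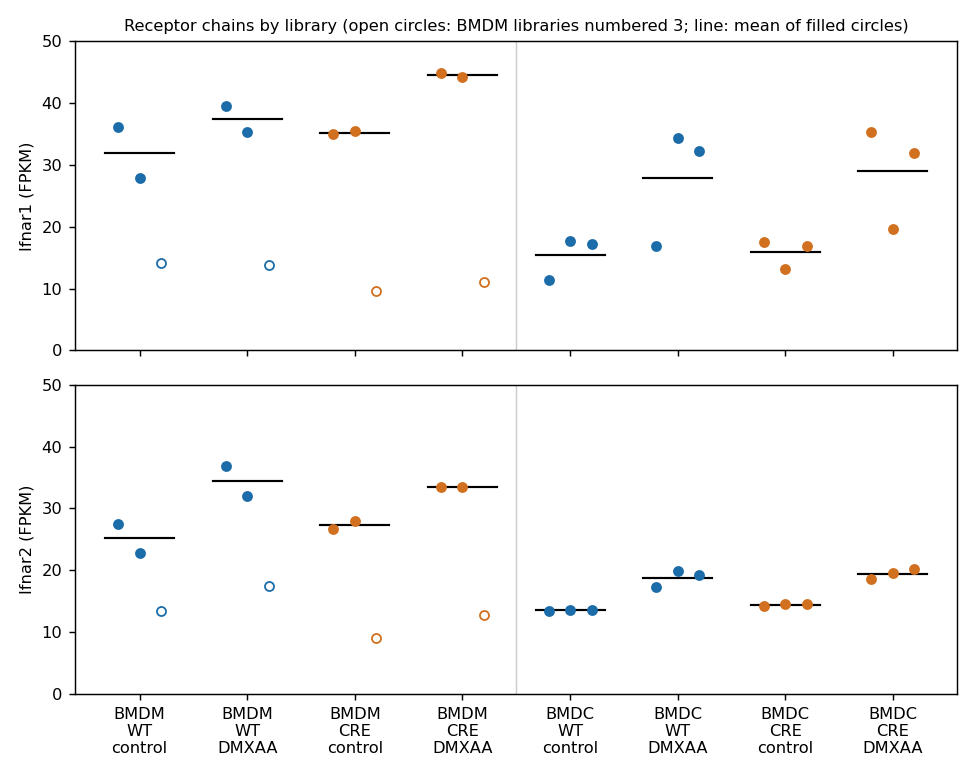
FPKM of Ifnar1 (top) and Ifnar2 (bottom) in all 24 libraries by group; filled circles are the libraries of the fits, open circles the BMDM libraries numbered 3, and lines the means of the filled circles. BMDCs are spread from 11.4 to 35.4 FPKM for Ifnar1 and from 13.5 to 20.2 for Ifnar2.

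Relative to the middle of all genes, the scale that TMM sets, DMXAA raised Ifnar2 in BMDCs, by 0.45 ± 0.11 (SE) on the log2 scale in WT (adjusted p = 0.0107) and by 0.40 ± 0.11 in CRE (adjusted p = 0.0229, edgeR). The Ifnar1 change was larger and more variable, 0.83 ± 0.31 in WT (adjusted p = 0.0621) and 0.85 ± 0.31 in CRE BMDCs (adjusted p = 0.0666), and was not called. The numbers pair control with DMXAA libraries within a label in BMDCs. With that pairing as a replicate block within each label, Ifnar1 was called at 0.78 in WT (adjusted p = 7.76e-04) and 0.81 in CRE (adjusted p = 8.44e-04). It was also called by DESeq2 (adjusted p = 0.0316 and 0.0319). The Ifnar2 call in CRE BMDCs was lost without CRE control library 1 or 3 or without CRE DMXAA library 3 (0.37 to 0.41, adjusted p = 0.0692 to 0.0788). Without a filter on low values the calls changed places: Ifnar2 was not called (adjusted p = 0.167 in WT and 0.278 in CRE) and Ifnar1 was (adjusted p = 0.0180 and 0.0190).

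Scaling bears on both receptor results. Dividing by total counts instead of TMM moved the median of all genes by -0.36 in WT and -0.34 in CRE BMDCs, and left Ifnar2 at 0.09 and 0.07 and Ifnar1 at 0.46 and 0.51, none called. In WT BMDMs the same change moved the median by -0.59 and turned both receptors downward, Ifnar1 to -0.40 (adjusted p = 0.0473) and Ifnar2 to -0.18. TMM gave 0.12 ± 0.14 for Ifnar1 and 0.34 ± 0.13 for Ifnar2 in WT BMDMs, with 95% intervals of -0.22 to 0.45 and 0.03 to 0.65, and neither was called (adjusted p = 0.564 and 0.0804). Ifnar2 was called there with the replicate block within label (0.34, adjusted p = 0.0191) and by DESeq2 (adjusted p = 0.0306). In CRE BMDMs they were 0.31 ± 0.14 and 0.27 ± 0.13 (adjusted p = 0.210 and 0.246).

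Between labels neither receptor passed the test, under DMXAA or in control, in either cell type. Under DMXAA, CRE differed from WT BMDMs by 0.30 (95% interval -0.04 to 0.64) for Ifnar1 and 0.01 (-0.30 to 0.32) for Ifnar2. Ifnar1 was called higher in CRE there with total count scaling (0.54, adjusted p = 0.0363) and without the WT BMDM libraries numbered 2 (0.24, adjusted p = 0.00473). In BMDCs the differences were 0.06 (-0.61 to 0.74) and 0.06 (-0.19 to 0.31) on the log2 scale. In control, Ifnar1 differed by 0.10 in BMDMs and 0.04 in BMDCs, and Ifnar2 by 0.08 and 0.10. Intervals were narrower for Ifnar2, whose libraries varied less.

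In WT cells, Ifnar2 was lower in BMDCs than in BMDMs in control and under DMXAA, and Ifnar1 in control. In WT control cells 2 of the 7 genes were called, both lower in BMDCs, and 28.5% of all genes were called (3812). Only the 2 receptors could be called, as the 5 ligands were at 0 in both groups, and 2 of 7 lay near the share of all genes. The log2 difference was -1.10 ± 0.29 for Ifnar1 (adjusted p = 0.00963) and -0.95 ± 0.12 for Ifnar2 (adjusted p = 2.40e-05, edgeR). Under DMXAA it was -0.82 ± 0.12 for Ifnar2 (adjusted p = 1.06e-04) and -0.37 ± 0.29 for Ifnar1, which was not called (adjusted p = 0.368). The cell type by DMXAA interaction called 0 of 7 members (2.61% of all genes), with 0.73 ± 0.42 for Ifnar1 (adjusted p = 0.511), so a smaller gap under DMXAA was not shown. Without the BMDC libraries that stood apart the interaction for Ifnar1 was 0.81 (adjusted p = 0.0333). Without WT control BMDM library 1, Ifnar1 in control was -0.89 and not called (adjusted p = 0.0930), and with the libraries numbered 3 included neither receptor was.

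Ordered by mean FPKM, Ifnar1 ran from CRE DMXAA BMDMs (44.5), whose range was apart from the next group, through the other BMDM groups and both DMXAA BMDC groups to CRE and WT control BMDCs (15.9 and 15.5). From WT DMXAA BMDMs downward, each group's range overlapped that of its neighbour. Ifnar2 ran from WT DMXAA BMDMs (34.4) to WT control BMDCs (13.5), with the 4 BMDM groups above the 4 BMDC groups. Its neighbours overlapped within both DMXAA pairs and between the control BMDM groups, and were apart elsewhere in FPKM. In CPM, CRE control BMDCs (51.4 to 54.9) overlapped both WT control BMDCs (46.3 to 52.3) and WT DMXAA BMDCs (45.9 to 57.2). The other neighbours that were apart in FPKM were apart in CPM too. This order is a description, and the share of all genes apart in this way was not counted. The ratio of Ifnar1 to Ifnar2 FPKM was 1.07 to 1.34 in BMDMs numbered 1 and 2 and 0.850 to 1.91 in BMDCs.

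Downstream of the receptor, Stat2 and Irf9 rose in all 4 responses, and the kinases in some. Of the 4 signalling genes reported, 4 were called higher in WT BMDMs, 3 in CRE BMDMs, 3 in WT BMDCs and 3 in CRE BMDCs, and 0 lower, beside 39.2%, 10.0%, 32.2% and 25.4% of all genes in the same order. Their median log2 changes were 2.45, 1.29, 1.45 and 1.46, against -0.08, -0.01, 0.01 and -0.01 over all genes tested. Stat2 changed by 5.09 ± 0.39 (SE) in WT and 4.25 ± 0.37 in CRE BMDMs, and by 3.79 ± 0.37 and 3.80 ± 0.37 in WT and CRE BMDCs. For Irf9, a DNA-binding factor of the same complex, the values in the same order were 2.35 ± 0.13, 1.73 ± 0.13, 1.86 ± 0.20 and 1.88 ± 0.20.

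The receptor's own kinases moved less. Tyk2 rose by 2.54 ± 0.40 in WT BMDMs and by 1.05 ± 0.33 in both BMDC labels, and was at 0.84 ± 0.38 in CRE BMDMs (adjusted p = 0.210). Jak1 rose by 0.64 ± 0.12 in WT and 0.50 ± 0.12 in CRE BMDMs, and stood at 0.31 ± 0.14 in WT and 0.37 ± 0.14 in CRE BMDCs, which were not called. CRE against WT BMDMs under DMXAA had 2 of the 4 genes lower, with 19.2% of all genes called, and BMDCs 0.

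Negative regulators of the receptor rose in part. Usp18, which displaces JAK1 from IFNAR2, rose most, by 8.64 ± 0.40 in WT and 7.45 ± 0.39 in CRE BMDMs, and by 6.48 ± 0.36 and 6.03 ± 0.35 in WT and CRE BMDCs. Socs1, an inhibitor of the JAK kinases, rose by 5.98 ± 0.53 and 2.70 ± 0.51 in BMDMs and by 1.10 ± 0.22 and 1.12 ± 0.22 in BMDCs. It was high before treatment in BMDCs, at 182 ± 27 CPM in WT control (SD, n = 3) against 2.97 ± 1.9 in WT control BMDMs (SD, n = 2). Socs3 rose in both BMDC labels, by 1.95 ± 0.19 and 1.72 ± 0.19, and stood at 1.52 ± 0.64 in WT BMDMs (adjusted p = 0.105) and -0.10 ± 0.70 in CRE BMDMs.

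Among the phosphatases of the same list, Ptpn6 rose in all 4 responses, by 0.76 to 1.25. Ptpn1 fell by 0.87 in WT BMDMs and by 0.44 in WT BMDCs on the log2 scale, and stood at -0.42 and -0.39 in the CRE groups (adjusted p = 0.164 and 0.0688). Ptpn11 was called in none, with 0.12 to 0.54. In all, 3 of the 6 regulators rose and 1 fell in WT BMDMs, 3 and 0 in CRE BMDMs, 4 and 1 in WT BMDCs, and 4 and 0 in CRE BMDCs, with median log2 changes of 1.38, 0.48, 0.93 and 0.98. The shares called in these responses were 39.2%, 10.0%, 32.2% and 25.4% of all genes.

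**Figure D5:**
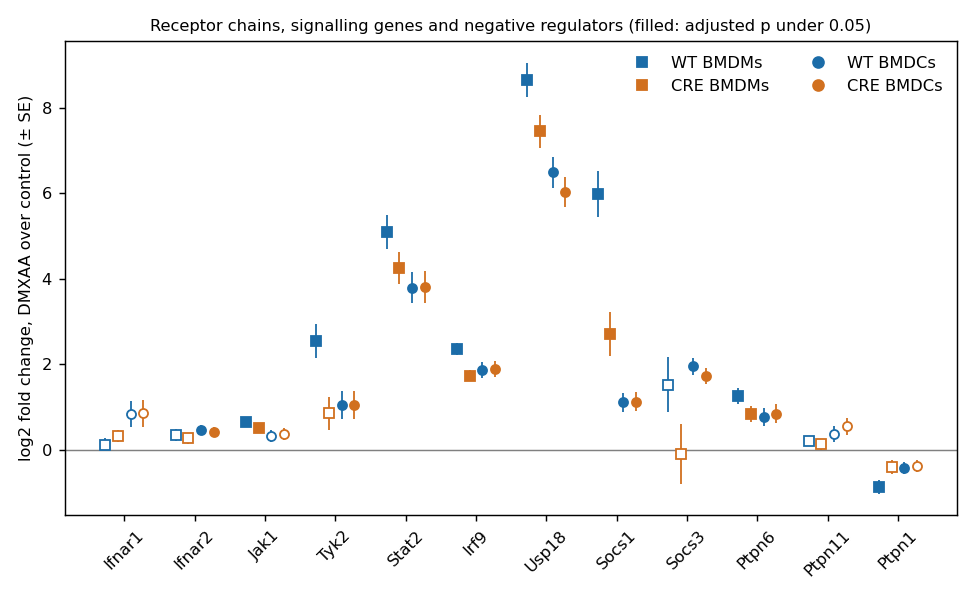
Log2 fold change of DMXAA over control (± SE, edgeR) for the 2 receptor chains, the 4 signalling genes and the 6 negative regulators in WT and CRE BMDMs (squares, 2 libraries per group) and BMDCs (circles, 3 per group). Filled symbols passed an adjusted p of 0.05; Ifnar1 is open in all 4 responses and Ifnar2 is filled in both BMDC responses.

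Upstream, of 13 genes that act in interferon induction, 9 were called higher in WT BMDMs, 2 in CRE BMDMs and 9 in each of the BMDC responses, with 1 lower in each WT response. Called in the same responses were 39.2%, 10.0%, 32.2% and 25.4% of all genes, so the 2 of 13 in CRE BMDMs lay near the share of all genes. Irf7, which drives the alpha genes, rose by 8.43 ± 0.31 in WT and 8.02 ± 0.31 in CRE BMDMs, and by 7.23 ± 0.36 and 7.56 ± 0.37 in WT and CRE BMDCs. Its mean under DMXAA was 2090 ± 321 CPM in WT BMDMs (SD, n = 2) and 724 ± 113 CPM in WT BMDCs (SD, n = 3). The part of Irf7 in the cell type difference of the alpha genes was not tested. Irf1, which binds the same core, rose by 4.77 ± 0.16 in WT and 2.53 ± 0.15 in CRE BMDMs, and by 4.37 ± 0.30 and 4.05 ± 0.30 in BMDCs. Under DMXAA, 7 of the 13 were lower and 1 higher in CRE than in WT BMDMs, with 19.2% of all genes called, and 0 were called in BMDCs.

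All 8 early interferon-stimulated genes were called higher in each of the 4 responses, CRE BMDMs included, where Ifnb1 was at 0 and 1 count. Of all genes, 39.2% were called in WT BMDMs, 10.0% in CRE BMDMs, 32.2% in WT BMDCs and 25.4% in CRE BMDCs. Rsad2, an antiviral enzyme, rose from 67 and 238 counts to 253994 and 288751 in WT BMDMs, and from 82 and 96 to between 53025 and 57219 in CRE BMDMs. Cxcl10, a chemokine, went from 37 and 98 counts to between 104035 and 105549 in WT BMDMs and from 12 and 14 to between 2549 and 2690 in CRE BMDMs. In BMDCs Cxcl10 was at 0 to 8 counts in control and 10381 to 53958 under DMXAA over both labels. Ifit3 rose by 11.60 ± 0.58 in WT and 11.20 ± 0.57 in CRE BMDCs on the log2 scale. Under DMXAA, 7 of the 8 were lower in CRE than in WT BMDMs, with 19.2% of all genes called, and 0 in BMDCs.

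Of the type II and III interferon genes, none that encodes a ligand passed the filter. Ifngr1, the ligand-binding chain of the gamma interferon receptor, fell by 0.91 ± 0.29 in WT BMDMs and by 1.22 ± 0.19 in WT BMDCs on the log2 scale, and in CRE BMDCs too (-0.98 ± 0.19). Ifngr2, its signalling chain, rose by 0.52 ± 0.13 and 0.58 ± 0.20. The lambda receptor gene Ifnlr1, named after its values were seen, did not pass the filter and had 10 to 51 counts in control and 2 to 17 in DMXAA BMDCs. Of this list of 7 genes 3 were tested, with 1 higher and 1 lower in WT BMDMs, 0 in CRE BMDMs, 2 and 1 in WT BMDCs, and 0 and 1 in CRE BMDCs. In the same order, 39.2%, 10.0%, 32.2% and 25.4% of all genes were called, and 3 genes are too few to set against these shares.

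The genes whose level followed each member most closely over the 20 libraries of the fits are given as a description, since all points share treatment and cell type. For Ifnb1 they were Rnaset2b (Pearson r = 0.984 of log2(CPM + 1)), Tagap (0.965), Tra2a (0.961), Gm45471 (0.960) and Oprd1 (0.959). For Ifnar2 they were Ptk2b (0.981), Syngr1 (0.980), Msr1 (0.980), Cd68 (0.980) and Nceh1 (0.978). Ifnar1 had looser neighbours, Pcnx (0.935), Kif13b (0.931), Pold3 (0.912), Idua (0.910) and Slc15a4 (0.909).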

How the data were processed

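PolyA RNA libraries (NEBNext Ultra) of the 24 samples were processed, per the submitters' notes, with CASAVA 1.8, fastp, HISAT2 2.0.5, featureCounts 1.5.0-p3 and DESeq2 1.20.0 on GRCm38 (mm10); strand setting and multi-mapping rules are not given in the sources used here. The authors deposited raw counts per gene. The deposited FPKM are the authors' values per gene length and per a library size other than the summed counts. The deposited group means, log2 fold changes, p-values and adjusted p-values hold the authors' own DESeq2 comparisons and were not used. All 48 count and FPKM columns were matched to a library by title, with 0 left over.

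Counts were tested with edgeR 4.0.16 (R 4.3.3): TMM scaling, quasi-likelihood F-tests, two-sided, Benjamini-Hochberg adjustment over all genes tested, called at an adjusted p under 0.05. The BMDM fit used 8 libraries and genes with FPKM of at least 1 in 2, the BMDC fit 12 libraries and 3, and the fit of both cell types 20 libraries and 2. SEs were derived from the fold change and its F, and intervals from the t distribution of each gene. Where a group was at 0, the fold is a bound against 3 counts in each library, and ratios over 1 to 3 counts carry an exact (Clopper-Pearson) interval. CPM divide by summed counts. Scripts were tested on simulated data. In BMDCs, deviations of control and DMXAA libraries with the same number correlated at 0.395 to 0.645 in WT and 0.515 to 0.677 in CRE, so numbers pair them within a label. Across labels, libraries with the same number correlated at -0.501 to 0.047. Some libraries with different numbers correlated more closely. Under DMXAA r was 0.669 for WT 3 with CRE 1, 0.574 for WT 1 with CRE 2 and 0.52 for WT 2 with CRE 3. In control the same pairs were at 0.343, 0.431 and 0.476. The CRE against WT tests and intervals in BMDCs did not use these crossed pairs. Alternatives were DESeq2 1.42.0, other scalings, no filter, blocks, leaving out libraries and including the BMDM libraries numbered 3.

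The members, lists and tests were chosen with earlier results of these data known. The lists of other type I genes, other interferons, induction, receptor signalling, negative regulators, early stimulated genes and cell markers were written with the design; named with values are the signalling genes and regulators, other type I genes over 3 counts, the 2 largest changes of each other list in the WT responses, and the 5 genes most like Ifnb1, Ifnar1 and Ifnar2. A signalling gene is not reported here and was left out of its list.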

Additional observations from a re-analysis of the deposited data

Results flagged for a closer look

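The response to DMXAA differed between WT and CRE BMDMs, by the test of the difference itself (edgeR's quasi-likelihood interaction, adjusted over all genes), for Irf1 and Cxcl10 among the genes named. The CRE minus WT difference between the responses was -2.25 ± 0.20 (SE, log2 scale, adjusted p = 0.0105) for Irf1 and -3.38 ± 0.66 (adjusted p = 0.0465) for Cxcl10. Under 16 alternatives the Irf1 difference was called in 11 (range over all -2.42 to -1.97) and that of Cxcl10 in 9 (-4.38 to -2.87). Both calls were lost with the BMDM libraries numbered 3 and without any one of the 4 CRE libraries (adjusted p = 0.0844 to 0.121 for Irf1 and 0.203 to 0.260 for Cxcl10), and that of Cxcl10 also with the replicate block (adjusted p = 0.0581) and without WT DMXAA library 1 (adjusted p = 0.0960). Between WT BMDCs and WT BMDMs the response differed for Usp18 (BMDC minus BMDM -2.14 ± 0.47, adjusted p = 0.0238) and Socs1 (-4.86 ± 0.50, adjusted p = 6.58e-05), both inhibitors of type I receptor signalling. Under 18 alternatives Usp18 was called in 14 (-2.93 to -1.58) and Socs1 in 17 (-6.19 to -2.74), and both calls were lost with the BMDM libraries numbered 3. Usp18 also lost it without library 1 of WT control BMDMs, WT DMXAA BMDMs or WT control BMDCs (adjusted p = 0.0548 to 0.124). For Ifnb1 and the alpha genes the same difference could not be estimated, because their control groups were at 0.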

How the results depend on the processing

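Settings moved both the whole-table counts of genes called and the results of the members. Of the members' log2 differences under alternatives, 339 kept direction and call, 46 changed sign, 20 gained and 18 lost the call. With the BMDM libraries numbered 3, 0 members and 0 genes were called in each BMDM comparison, 0 receptors in WT control BMDCs against BMDMs, with 1169 genes there, 1324 under DMXAA and 0 in the interaction of cell type and DMXAA; Ifnar2 in CRE against WT BMDMs became -0.13 under DMXAA and -0.0141 in control. Without the WT BMDM libraries numbered 2, chosen after the data were seen for their fibroblast markers and leaving 1 library in each WT arm that is assumed to vary like the CRE libraries, members called were 2 in both BMDM responses and in CRE against WT under DMXAA and 1 in the interaction of label and DMXAA, the calls gained between labels and in the interaction being Ifnar1, with 7285, 6368, 6145 and 5334 genes and 2520 in control; Ifnar2 became -0.0767 under DMXAA and -0.0314 in control, and Ifnar1 -0.0599 in control. The cause was not tested.

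The replicate block within each label called 2 members in WT BMDMs and 2920 genes in CRE BMDMs, 1702 in the BMDM interaction of label and DMXAA, 5911 in WT and 5181 in CRE BMDCs. Total count scaling called 2 members in WT BMDMs (6849 genes) and in CRE against WT BMDMs under DMXAA, where Ifnar1 was gained, with Ifnar1 at -0.40 and Ifnar2 at -0.18 in WT BMDMs and Ifnar2 at 0.21 in the BMDM interaction of label and DMXAA. Without the filter, genes called were 2120 in CRE BMDMs, 3630 and 700 in CRE against WT BMDMs under DMXAA and in control, 1342 in the BMDM interaction, 2 and 2 in CRE against WT BMDCs under DMXAA and in their interaction, and 836 in the cell type interaction. DESeq2 gave 1908, 126, 1195, 1 and 738 genes in CRE BMDMs, control BMDMs by label, the BMDM, BMDC and cell type interactions, 0 members in CRE against WT BMDMs under DMXAA, 3 in BMDCs against BMDMs under DMXAA and 1 in the cell type interaction. Ifnar2 in CRE against WT BMDMs under DMXAA was -0.0559 by DESeq2 and -0.0563 with median of ratios scaling. Without the BMDC libraries that stood apart, CRE against WT under DMXAA became 0.11 for Ifnb1, -0.15 for Ifna1, 0.0558 for Ifna5 and -0.0195 for Ifnar2, Ifnar1 in control -0.0236, and 1 member was called in the cell type interaction.

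Leaving out 1 library at a time (a lone library is then assumed to vary like the others) gave 1 to 2 members in WT BMDMs, 0 to 1 in CRE against WT BMDMs under DMXAA and 1 to 2 in control BMDCs against BMDMs. Genes called ran from 248 to 321 in CRE BMDMs, 313 to 2497 in CRE against WT BMDMs under DMXAA, 2 to 215 in control, 0 to 1347 in the BMDM interaction, 2548 to 3705 in BMDCs against BMDMs under DMXAA and 134 to 549 in the cell type interaction. Ifnar1 ran from -0.0309 to 0.31 in WT BMDMs, -0.0606 to 0.28 between labels in control BMDMs, -0.0064 to 0.34 in the BMDM interaction, -0.21 to 0.27 between labels in DMXAA BMDCs, -0.14 to 0.17 in control BMDCs and -0.25 to 0.23 in the BMDC interaction. Ifnar2 ran from -0.0767 to 0.10 and -0.0324 to 0.21 between labels in DMXAA and control BMDMs, -0.22 to 0.0173 in the BMDM interaction, -0.0179 to 0.10 between labels in DMXAA BMDCs and -0.0292 to 0.22 in the cell type interaction. Between labels in DMXAA BMDCs, Ifnb1 ran from -0.56 to 0.0073, Ifna1 from -0.32 to 0.82, Ifna4 from -0.88 to 0.10 and Ifna5 from -0.69 to 0.35.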
